A study of Mus musculus with 3 samples.

Results

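The fibroblast growth factor (FGF) signalling genes Etv5, Etv4, Spry4, Dusp6 and Fgf4 were examined for listed binding sites of Foxd3, a member of the forkhead family, in embryonic stem cells of the mouse. The members are all peaks of 2 lists that overlapped 1 of 5 windows of the mm9 genome, each 205 to 260 kb long and named for 1 of these genes. There were 13 such peaks of 7975 in both lists together, 7 of 3406 in the list made with the anti-HA antibody and 6 of 4569 in the list made with the anti-Flag antibody. The windows were chosen by where peaks stand in these same lists, that is with the peak positions of both lists and the lack of overlap at Etv5 known, so the counts below are a description and none was tested. Both antibodies precipitated the same protein, an exogenous Foxd3 carrying Flag and HA epitopes (FH-Foxd3), and the tagged protein was reported to be close to endogenous in level. It was introduced with the pTrip lentivirus into LF2 embryonic stem cells, which were selected with neomycin and kept without feeder cells in Knockout-DMEM with 15% FBS and LIF. No change to the cells' own Foxd3 is described. Every sample came from this FH-Foxd3 line, as 1 library per antibody and 1 input of total genomic DNA, which was not analysed here. A precipitation from untagged cells was not analysed here, so signal that either antibody recovers without Foxd3 was not measured. Whether the line was 1 clone is not given in the sources used here, and a list of peaks holds no transcript levels against which the cell type could be checked.

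In embryonic stem cells, secreted Fgf4 is the main ligand that drives the ERK kinases, and this signal moves cells from the naive state towards readiness to differentiate. Etv5 and Etv4 are ETS transcription factors of the PEA3 group whose transcription follows ERK activity. Spry4, a Sprouty protein, and Dusp6, a phosphatase of ERK, are induced by the same signal and dampen it. Forkhead proteins bind DNA through a winged helix and prefer sites with a core of TGTTTAC or close variants.

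Peaks were listed in 4 of the 5 windows. Over all windows of 205 kb, the shortest length used, 72.0% held no peak in either list, but these 5 were set with their peaks known. The Etv5 window held 7 of the 13 peaks, the Spry4 window 3, the Etv4 window 2 and the Dusp6 window 1, while the Fgf4 window held none. Only Etv5 and Spry4 had a site that both antibodies recovered. The share of all windows with such a site was not counted. Of the 7 HA peaks 2 overlapped a Flag peak by at least 1 bp, against 73.3% of the whole HA list (95% Wilson interval 71.8 to 74.7), and of the 6 Flag peaks 2 overlapped an HA peak, against 54.7% of the whole Flag list (53.2 to 56.1). The remaining 9 peaks, 5 of HA and 4 of Flag, were in 1 list only. Of these 5 HA peaks, 4 stood in the Etv5 window, where the lack of overlap was known when the windows were chosen. The low pooled HA count therefore rests mostly on that 1 locus. A list gives a position and a width with no height or read count, so the depth behind a peak is unknown, and absence from a list does not show that a library had no signal there.

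**Figure D1:**
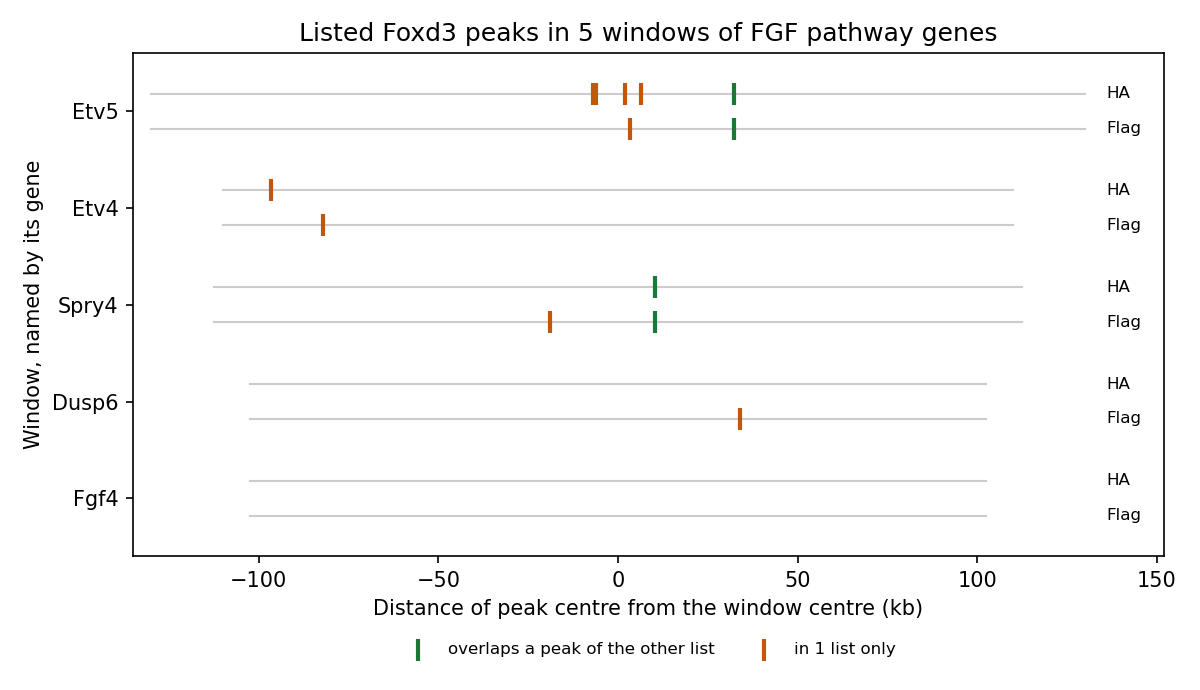
Each pair of grey lines is 1 window, the upper for the HA list and the lower for the Flag list, and each tick is a peak at its distance in kb from the window's centre. Green ticks overlap a peak of the other list, which occurred once in the Etv5 and once in the Spry4 window, and orange ticks are the 9 peaks in 1 list only.

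The letters under the peaks themselves are not shown, because no mm9 genome was used here. To show what the genes' starts look like, the 250 bases before the start are given for Etv5, the gene with the most listed peaks, for Dusp6, with 1 peak in 1 list, and for Fgf4, with none, from RefSeq on GRCm38.p6. That build differs from the mm9 of the peaks, so no distance between these sequences and a peak can be taken. Entries were matched by symbol for these 3 of the 5 genes only. Etv4 and Spry4 had none, so Spry4, with its shared site, is not shown. Each sequence runs 5′ to 3′ on the gene's strand, and capitals mark the forkhead core TGTTTAC, the related core TGTTTGC, and the further core TGTTTAT, each on either strand. They lie at chr16:22439571-22439820 (minus strand), chr10:99262981-99263230 (plus strand) and chr7:144861136-144861385 (plus strand), in the order printed.
Etv5: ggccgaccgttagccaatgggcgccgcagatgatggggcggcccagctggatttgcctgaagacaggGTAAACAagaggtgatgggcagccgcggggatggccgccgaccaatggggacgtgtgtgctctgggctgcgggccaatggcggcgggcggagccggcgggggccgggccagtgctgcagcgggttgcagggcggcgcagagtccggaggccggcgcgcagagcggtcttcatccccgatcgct
Dusp6: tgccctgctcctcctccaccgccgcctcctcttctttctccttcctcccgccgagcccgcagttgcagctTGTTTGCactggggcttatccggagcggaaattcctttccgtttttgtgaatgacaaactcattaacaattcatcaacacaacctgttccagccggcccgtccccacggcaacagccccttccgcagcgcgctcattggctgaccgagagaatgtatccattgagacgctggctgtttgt
Fgf4: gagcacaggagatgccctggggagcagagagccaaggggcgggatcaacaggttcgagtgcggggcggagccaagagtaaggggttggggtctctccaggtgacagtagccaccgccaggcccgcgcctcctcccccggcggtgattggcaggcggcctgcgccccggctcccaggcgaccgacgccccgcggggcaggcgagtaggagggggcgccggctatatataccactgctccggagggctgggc

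The Etv5 sequence held GTAAACA, the reverse complement of TGTTTAC, beginning 183 bases before the start, and the Dusp6 sequence held TGTTTGC beginning 180 bases before it. The Fgf4 sequence held none of the 3 cores. The letters of TGTTTAC, on either strand, were in 3.17% of the 32841 promoter sequences of the same length in that table, those of TGTTTGC in 4.30%, those of TGTTTAT in 4.16% and any of them in 11.0%. Etv5 has 2 listed starts, and the stretch before the other start held no match. GC content was 71.2% for Etv5, 56.4% for Dusp6 and 71.2% for Fgf4, against a median of 52.4% over the table. A match describes these letters only and was not compared with binding.

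At Etv5 (window at chromosome 16, 22280000 to 22540000) 1 site was recovered by both antibodies and stood near the head of both lists. The HA peak spanned 634 bp at chromosome 16, 22442080 to 22442713, and stood on line 20 of the HA list. The Flag peak spanned 662 bp at 22442087 to 22442748 and stood on line 92 of the Flag list. They overlapped by 627 bp, which is 98.9% of the HA peak and 94.7% of the Flag peak, and their centres were 21 bp apart, against a median of 51.5 bp over all shared HA peaks. The lists do not state what their order is. Ordered by the later of its 2 line numbers, this site came 8th of the 2496 shared HA peaks. It was 1 of 9 shared sites within the first 100 lines of both lists, where 99 HA peaks but only 10 Flag peaks were shared. Its width was less exceptional: 64.2% of HA peaks and 74.5% of Flag peaks were narrower.

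The other HA peaks at Etv5 formed a row 25.3 kb below the shared one. They were 632 bp wide at 22402652 to 22403283, 451 bp at 22403785 to 22404235, 368 bp at 22411833 to 22412200 and 527 bp at 22416206 to 22416732. The gaps between neighbours were 501, 7597 and 4005 bp, so these 4 peaks spanned 14.1 kb. None overlapped a Flag peak, so 4 of the 5 HA peaks at Etv5 were HA-only, against 26.7% of the whole HA list. Their lines were 2558, 2239, 2754 and 3319 of 3406, all in deciles 7 to 10 of the list, far from line 20 of the shared peak. Between its lines 2239 and 3319 the whole HA list was itself 49.2% HA-only, and HA-only peaks made up 2.94% of its decile 1 and 62.5% of its decile 10.

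The Flag list did hold a peak inside this row. It spanned 580 bp at 22412924 to 22413503, on line 1811, and lay in the gap between the upper pair of HA peaks of the row. The HA peak at 22411833 ended 723 bp before it, with centres 1197 bp apart, and the HA peak at 22416206 began 2702 bp after it. The 2 HA peaks at the low end lay 9640 and 8688 bp from it. The 4 HA-only peaks were therefore all within 10 kb of a Flag peak, and 1 was within 1 kb. Over the whole HA list, 14.3% of the 910 HA-only peaks had a Flag peak within 10 kb and 2.97% within 1 kb. Among the 2072 Flag-only peaks, 8.11% had an HA peak within 10 kb and 2.32% within 1 kb, as the Etv5 one did.

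**Figure D2:**
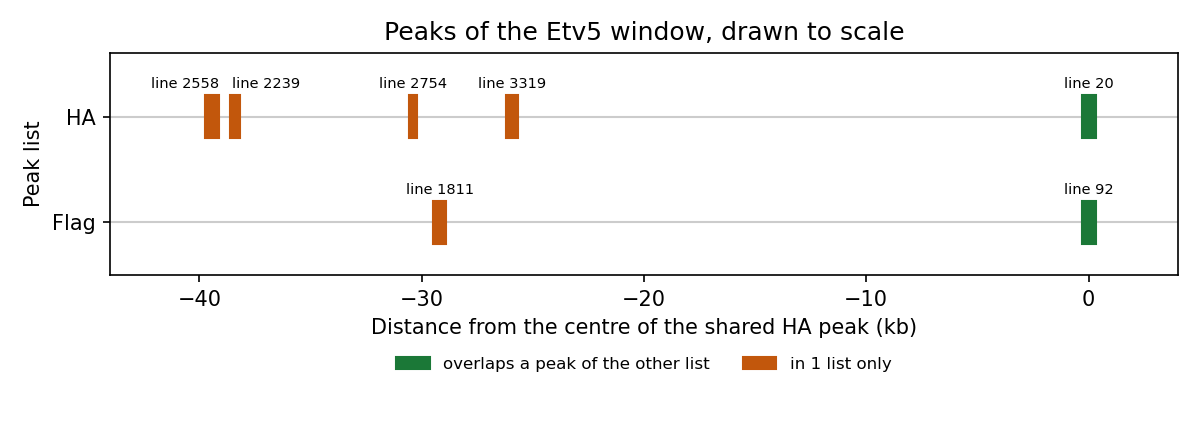
The bars are the 5 HA and 2 Flag peaks of the Etv5 window, drawn to scale against distance in kb from the centre of the shared HA peak and labelled with their line in the list. The shared site (green) stands on lines 20 and 92, and the single Flag peak in the row, on line 1811, falls between HA peaks and touches none.

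Linked where gaps were under 12500 bp, the HA list had 34 groups of 3 or more peaks. The Etv5 row was the only 1 of these 34 (2.94%) in which no peak overlapped a Flag peak, and 1 of 12 (8.33%) among groups of 4 or more. The groups were not matched for place in the list. The Etv5 row stood on lines 2239 to 3319, where 49.2% of the whole HA list was HA-only. Only a group on chromosome 4 began later, at line 2516, and 2 of its 3 peaks were shared. In 16 of the 34 groups every peak was shared. Of the 48 groups of 3 or more Flag peaks, 3 had no shared peak. Linked under 5 kb, the row split at its 7597 bp gap into pairs, so that the largest Etv5 group had 2 peaks. The group's lack of overlap was already known when the window was chosen.

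The Etv5 gene was placed at about 22.38 to 22.44 Mb when its window was set, a rounded position. All 4 HA-only peaks and the Flag-only peak lay inside that interval, and the shared site began 2.1 kb above its upper edge. RefSeq lists Etv5 on the minus strand, so the upper edge is the side on which the gene starts. No mm9 annotation was used here, so exon, intron or promoter could not be assigned. In the gene order of GRCm38.p6, Tra2b is the protein-coding neighbour below Etv5 and Dgkg the one above.

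The Etv5 window held the most HA peaks and the most peaks of both lists together, while in Flag peaks Spry4 equalled it with 2, at 0.889 per 100 kb. The 5 HA peaks at Etv5 came to 1.92 per 100 kb against 0.130 over the whole list, and the 2 Flag peaks there to 0.769 against 0.175. Laid end to end along the chromosomes, 30 of 10058 windows of 260 kb (0.298%) held at least 5 HA peaks, and 10.3% held at least 2 Flag peaks. Those windows were placed without regard to genes or peaks, whereas the Etv5 window was set with its peaks known. Its place among them is therefore no measure of how unusual the locus is. The nearest peaks outside were shared sites in each direction, 119 kb below the window in both lists and 68.1 kb (HA) and 68.2 kb (Flag) above it.

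Etv4, the close relative of Etv5, had 1 peak per list in its window (chromosome 11, 101530000 to 101750000), and they did not meet. The HA peak was 329 bp wide at chromosome 11, 101543371 to 101543699, on line 1566, and only 7.25% of HA peaks were narrower. The Flag peak was 1124 bp wide at 101557204 to 101558327, on line 658, and 95.7% of Flag peaks were narrower, which makes it the widest peak of the 13. The gap between them was 13.5 kb. At least 1 HA peak was found in 20.7% of windows of 220 kb, and at least 1 Flag peak in 26.0%. Both peaks sat near the low edge of the window, 13.4 and 27.2 kb inside it, and cutting the window by 25% at each side left none. Outside, a Flag-only peak lay 65.7 kb below the window, and the nearest HA peak below was 360 kb away. In gene order Dhx8 and Meox1 flank Etv4, and neither peak was assigned to a gene.

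**Figure D3:**
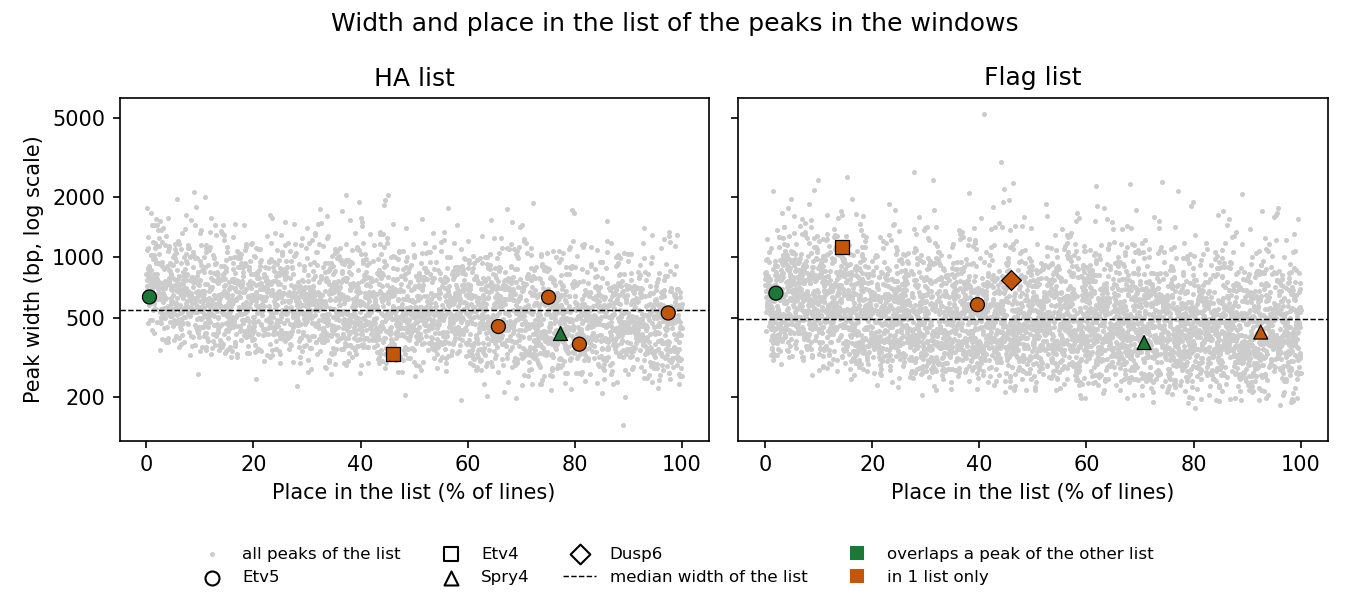
Peak width in bp (log scale) is plotted against place in the list, as a percent of lines, for all HA peaks and all Flag peaks (grey), with the peaks of the windows as larger symbols by gene and a dashed line at the list's median width. The shared Etv5 site stands at the left edge of both panels (0.587% and 2.01% of lines), whereas the 4 HA-only Etv5 peaks lie between 65.7% and 97.4%.

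At Spry4 (window at chromosome 18, 38640000 to 38865000) the shared site was narrow and late in both lists. The HA peak spanned 417 bp at chromosome 18, 38762728 to 38763144, on line 2630, and the Flag peak 375 bp at 38762696 to 38763070, on line 3233. They overlapped by 343 bp, or 82.3% of the HA and 91.5% of the Flag peak, with centres 53 bp apart. By the later line number the site came 1985th of the 2496 shared HA peaks, where Etv5 came 8th. In their own deciles of the lists, 55.9% of HA peaks (50.6 to 61.1) and 40.7% of Flag peaks (36.3 to 45.3) were shared. A further Flag peak, 423 bp wide at 38733305 to 38733727 on line 4228, lay 29.0 kb below with no HA counterpart. At least 1 HA peak was found in 21.0% of windows of 225 kb, and at least 2 Flag peaks in 8.34%. Below the window the nearest peaks were unshared, an HA peak 70.4 kb from its edge and a Flag peak of 1407 bp further out, and above it both lists had a shared site 129 kb (HA) and 130 kb (Flag) away.

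Dusp6 (window at chromosome 10, 98625000 to 98830000) was represented in the Flag list only. Its peak spanned 773 bp at chromosome 10, 98761125 to 98761897, on line 2094, and 83.1% of Flag peaks were narrower. The nearest HA peak was 170 kb away, outside the window, at 98931664 to 98932023. That HA peak, of 360 bp on line 567, was a shared site. Windows of 205 kb with a Flag peak and no HA peak made up 8.46% of all, windows with at least 1 Flag peak 24.7%, and windows with no HA peak 80.5%.

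No peak of either antibody was listed in the 205 kb around Fgf4, the ligand itself (chromosome 7, 151945000 to 152150000). This was the usual state of a window of that length, since 72.0% of 12760 windows held no peak in either list. The nearest sites were shared by both antibodies and lay well outside. Below the window, 197 kb from its edge, were an HA peak of 349 bp at chromosome 7, 151748003 to 151748351, and a Flag peak of 249 bp at 151748039 to 151748287. Above it, 175 kb away, were an HA peak of 762 bp at 152324768 to 152325529 and a Flag peak of 1106 bp at 152324814 to 152325919. Fgf3 and Fgf15, further FGF ligand genes, are the protein-coding neighbours of Fgf4 in gene order. Neither was placed on mm9, so whether a peak lay near them was not examined.

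**Figure D4:**
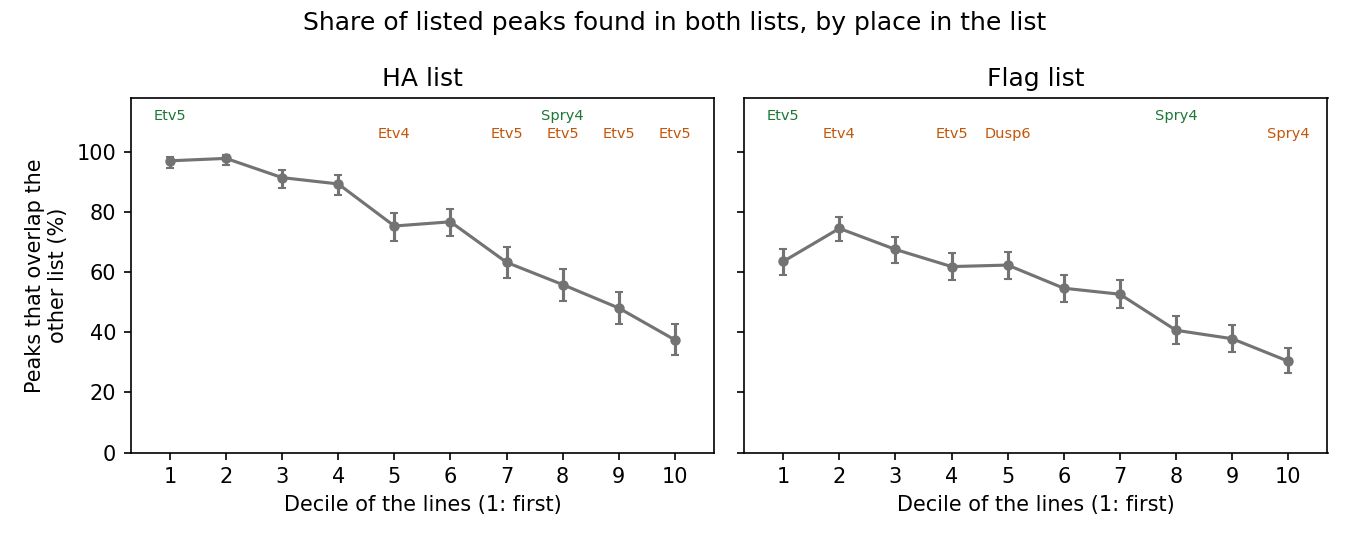
Points give the percent of peaks that overlap the other list in each decile of the lines of the HA and the Flag list, with 95% Wilson intervals, and gene names above mark the decile of each peak in the windows (green for shared, orange for 1 list only). The share is 97.1% in decile 1 and 37.5% in decile 10 of the HA list, and the HA-only Etv5 peaks stand in deciles 7 to 10, 1 in each. In the Flag list it is 63.6% in decile 1, 74.6% in decile 2 and 30.4% in decile 10, so its first lines are not the most shared.

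Across the 13 peaks, widths ran from 329 bp to 1124 bp, both at Etv4. The shared sites stood apart in line position, with Etv5 in decile 1 of both lists and Spry4 in decile 8 of both. Among the unshared Flag peaks, Etv4 was on line 658, Etv5 on 1811, Dusp6 on 2094 and Spry4 on 4228 of 4569. The whole deciles in which they stood were shared at 74.6%, 61.9%, 62.4% and 30.4%. The Etv4, Etv5 and Dusp6 peaks, each wider than most of the Flag list, were thus unmatched in deciles where most peaks had an HA partner, and the Spry4 peak was not wider than most and stood in a decile where most had none.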

How the data were processed

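Foxd3 peaks were listed for 1 anti-HA and 1 anti-Flag library. The authors deposited each list as 3 columns (chromosome, start and end of each peak, in base pairs) with no other value. Positions are on mm9 (submitters' processing notes). Aligner, peak caller, calling threshold and any use of the input: not given in the sources used here. Read depth is unknown, and the threshold decides which weak sites appear.

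Starts were converted to 1-based positions. Peaks overlapping by at least 1 bp were shared. Counts equalled those of bedtools 2.31.1, and the overlap, gap and linking code was tested on simulated data. Windows of equal length were laid from the start of each chromosome to the largest listed peak end. Forkhead cores were searched in RefSeq promoters. The work used scipy 1.17.1 (Wilson intervals), pandas 2.3.3, numpy 2.4.6 and matplotlib 3.10.9 under Python 3.11.15. Wilson intervals cover counting error only.

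The genes named are the 5 of the windows, with every peak in them and the nearest peaks outside. The members, windows and lists were chosen with earlier results of these data known. No test was made: each antibody has 1 library. Other FGF pathway genes listed for this work could not be placed without an mm9 annotation.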

Additional observations from a re-analysis of the deposited data

How the results depend on the processing

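The 2 shared HA and 2 shared Flag peaks stayed 2 when 50% of each peak had to be covered. They became 3 each with a gap of up to 1 kb. With up to 10 kb they became 6 of the 7 HA and 3 of the 6 Flag peaks, by the row at Etv5. In the whole HA list 73.3% of peaks overlapped a Flag peak, and 14.3% of the 910 others had one within 10 kb. For Flag these were 54.7%, and 8.11% of the 2072 others. With 10 kb allowed, the HA count was thus no longer low beside its list. However, the 4 HA-only peaks of the row all had the same Flag peak as their nearest, so 1 Flag peak gave all of these matches. No whole-list share is given for the shortened lists that follow. In the wider 50% of each list, 1 shared peak was left per list, at Etv5. The window counts became 2 HA peaks at Etv5, 0 HA at Etv4 and 0 in both lists at Spry4. Keeping the first 50% of lines, an alternative chosen after seeing the data, left 1 shared peak per list, 1 HA peak at Etv5 and 0 in both lists at Spry4. Cutting the windows by 25% at each side left 0 HA and 0 Flag peaks at Etv4. Widening them by 50 kb at each side changed no count. The group of 4 Etv5 peaks broke at its 7597 bp gap into pairs when linked under 5 kb, so that the largest group had 2 peaks, and it stayed at 4 under 25 kb. Linking both lists together, also chosen later, gave 5. No paired analysis was possible because there is a single library for each antibody, which also leaves no replicate to leave out. Without read counts, no limit can be set on signal under the authors' threshold.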
